A study of Mus musculus with 20 samples.

Results

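Ganglia of mice homozygous for a MYCN transgene were compared with ganglia of wild-type mice to ask whether tissue that carries the transgene, and is not labelled as tumor, differs from normal ganglia. The arrays were chosen by their titles, 2 homozygous ganglia and 4 wild-type ganglia, which make 6 of the 20 arrays of the series. Homozygous tumors (4 arrays) are given beside them where a gene's level in tumors of the same genotype is useful. The wild-type mice were on a 129+Ter/SvJcl background and the transgenic mice on a mixed background that includes it. Animals were kept by crossing to 129+Ter/SvJcl wild-type mice, so genotype and background cannot be told apart. In all groups the frozen tissue gave total RNA, of which 40 ng was amplified in 2 cycles and labelled as biotinylated cRNA. The labels name no treatment. The labels give no age, sex, ganglion site or pooling, name no promoter for the transgene, and do not place the homozygous ganglia before tumor onset.

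Sympathetic ganglia hold noradrenergic neurons, wrapped by satellite glia and Schwann cells, that arise from neural crest precursors and leave the cell cycle as they mature. MYCN is a transcription factor that is active in such precursors, and extra copies of its gene mark aggressive neuroblastoma, which arises in this lineage. It binds E-box sequences as a partner of MAX and is known for raising ribosome production and cell cycle entry. Genes of DNA synthesis are commonly controlled through E2F sites near their starts. Genes of mitosis are commonly controlled through an element called CHR, often beside a CCAAT box, the binding site of NF-Y.

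The labels do not say that arrays of a group came from separate animals, so p-values measure only the spread between arrays, whose number limits the precision. Values are probe set intensities on the linear scale of the deposited table, listed as homozygous ganglia 1 and 2 and then wild-type ganglia 1 to 4. Fold changes are on the log2(intensity + 16) scale, which understates changes of dim genes, and a gene passed at an adjusted p under 0.05. Among the gene lists examined, those of mitosis and DNA replication had nearly every member rise in the homozygous ganglia (35 of 36 and 25 of 27), and 9 of 26 precursor transcription factors rose, led by Insm1. Genes of noradrenaline synthesis and release, neurofilaments and most glial genes did not pass. Of 15132 genes tested, 758 passed (5.01% of those tested), 604 of them higher (3.99%) and 154 lower (1.02%). The groups did not overlap for 601 of the higher and 153 of the lower genes that passed, so non-overlap added little to a call. Over all genes tested, the homozygous ganglia were above every wild-type ganglion for 14% and below every one for 13.5%. With only the 6 compared arrays in the fit 144 genes passed, and with a 2-fold threshold in the test 96 did. All of these were higher, so each call of a gene as lower over all 4 wild-type ganglia is lost under both settings.

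The wild-type ganglia fell into 2 pairs, so counts of lists, and calls that change, are also given against ganglia 1 and 2 alone. Across all genes ganglia 1 and 2 correlated at r = 0.975 and ganglia 3 and 4 at 0.968, while members of different pairs correlated at 0.903 to 0.926. The homozygous ganglia correlated with each other at 0.984. Xist, transcribed from the inactive X chromosome of females, read 2707 and 2543 in the homozygous ganglia, 2411 and 2481 in wild-type ganglia 1 and 2, and 44 and 30.7 in ganglia 3 and 4. The Y-linked gene Eif2s3y was 519 and 775 in ganglia 3 and 4 and at most 4.31 on the other 4 ganglion arrays. Against ganglia 1 and 2, which share the Xist pattern of the homozygous ganglia, 523 genes passed (3.46%), of which 479 rose (3.17%) and 44 fell (0.291%). Against ganglia 3 and 4, 5267 passed (34.8%), of which 2841 rose (18.8%) and 2426 fell (16%). These comparisons share the homozygous arrays. In all, 380 genes rose (2.51%) and 13 fell (0.0859%) against both pairs, and 12 went opposite ways (0.0793%). The count over all 4 wild-type ganglia, 758, was 189 without homozygous ganglion 1, 370 without homozygous ganglion 2, 1177 without wild-type ganglion 1 and 2232 without wild-type ganglion 2.

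Markers of other tissues were unevenly spread over these arrays. The summed intensity of 18 skeletal muscle genes was 523 and 11002 in the homozygous ganglia and 10763, 8058, 558 and 495 in the wild-type ganglia. Muscle RNA was thus shared by homozygous ganglion 2 with wild-type ganglia 1 and 2, whereas homozygous ganglion 1 was as low as wild-type ganglia 3 and 4. Acta1, the actin of skeletal muscle, followed this split at 24.4 and 867 in the homozygous ganglia and 1042, 529, 16 and 7.10 in the wild-type ganglia. The 12 fat cell genes summed to 9051 and 9445 in the homozygous ganglia, within the range of 4820 and 15380 in wild-type ganglia 1 and 2, and to 1749 and 5012 in ganglia 3 and 4. The 10 plasma protein genes summed to 1221 and 1364 against 5374, 1606, 212 and 156. No muscle, fat, plasma protein, red cell, macrophage, lymphocyte or endothelial marker passed by limma against the 4 wild-type ganglia (0, 1, 1, 1, 7, 1 and 0 at an unadjusted p under 0.05), and of 16 fibroblast genes only Fbln1 did (log2 1.62, SE 0.20, adjusted p = 3.1e-05). Against ganglia 3 and 4, 1 of 18 muscle, 5 of 12 fat and 4 of 9 plasma protein markers tested were higher, beside 18.8% of all genes. So were 7 of 15 macrophage and 4 of 14 endothelial markers, while 1 of 6 lymphocyte markers was lower. Against ganglia 1 and 2, 1 plasma protein marker was lower. The 11 sympathetic neuron genes measured summed to 16302 and 19261 in the homozygous ganglia, below the range of 20178 to 32892 in the wild-type ganglia. None was under 10 on any of the 6 arrays, so sympathetic neuron RNA was present in every ganglion. The titles say only that the tissue is ganglion. The beta-actin 3' to 5' signal ratio, a measure of RNA integrity, was 4.68 and 4.02 in the homozygous and 4.36, 7.14, 6.88 and 9.14 in the wild-type ganglia. The same ratio for Gapdh overlapped between the groups, at 3.75 and 3.91 in the homozygous and 3.24, 4.13, 2.56 and 3.75 in the wild-type ganglia. The part of these differences in the results was not tested.

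**Figure D1:**
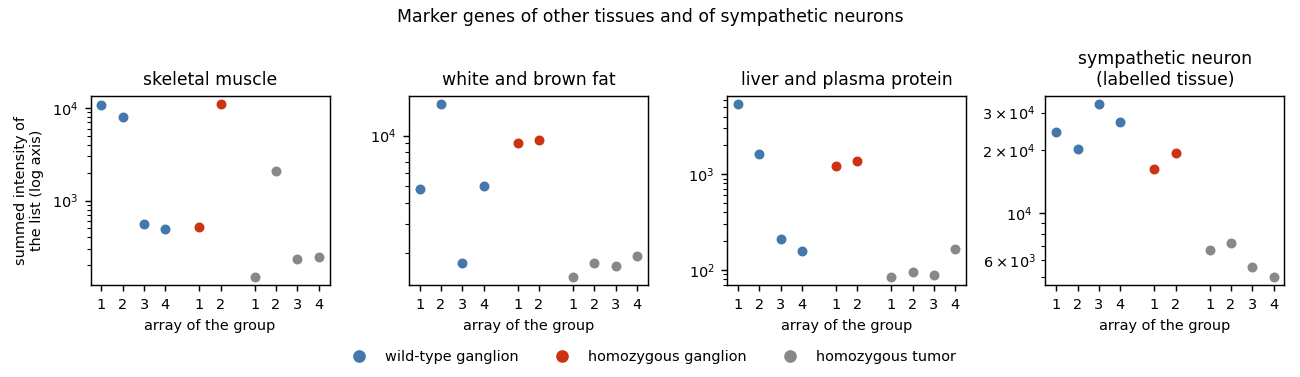
Summed probe set intensity (log axis) of marker genes of skeletal muscle, fat, liver and plasma, and sympathetic neurons on each wild-type ganglion, homozygous ganglion and homozygous tumor array (1 point per array). Muscle genes were high in wild-type ganglia 1 and 2 and homozygous ganglion 2 and low in the other 3 ganglia, while sympathetic neuron genes were high in all 6 ganglia.

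The promoter windows of cell division genes are shown first. Shares of promoters with a motif were counted for gene lists and for all genes tested, not for the genes that passed. Each window holds 250 bases before and 50 bases after the start of the gene, read 5′ to 3′ on the strand of the gene, from RefSeq (GRCm38.p6). Capitals mark matches on either strand to CHR (TTTGAA), the CCAAT box (CCAAT), an E2F site (TTTCCCGC, TTTGGCGC, TTTCGCGC or TTTGCCGC), the E-box CACGTG or its core ACGTG, and matches may overlap. Of the mitotic genes, Cdc20, Cdca8, Kif2c and Melk are shown because they had the smallest p of their list. Mcm6 and Mcm5 stand for replication and were added after the shares of promoters with each motif were seen. Agtr2 and Egln3 were among the 3 genes with the highest fold changes, and Insm1, the highest, had no entry in the table, so 6 of 7 matched.
Cdc20 (chr4:118437294-118437593, minus strand): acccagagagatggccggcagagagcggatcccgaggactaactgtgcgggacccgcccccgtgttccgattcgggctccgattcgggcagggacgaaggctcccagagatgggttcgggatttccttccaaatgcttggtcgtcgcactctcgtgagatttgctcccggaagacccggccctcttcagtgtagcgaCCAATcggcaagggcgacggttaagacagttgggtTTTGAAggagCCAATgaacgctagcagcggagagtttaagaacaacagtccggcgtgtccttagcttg
Cdca8 (chr4:124936868-124937167, minus strand): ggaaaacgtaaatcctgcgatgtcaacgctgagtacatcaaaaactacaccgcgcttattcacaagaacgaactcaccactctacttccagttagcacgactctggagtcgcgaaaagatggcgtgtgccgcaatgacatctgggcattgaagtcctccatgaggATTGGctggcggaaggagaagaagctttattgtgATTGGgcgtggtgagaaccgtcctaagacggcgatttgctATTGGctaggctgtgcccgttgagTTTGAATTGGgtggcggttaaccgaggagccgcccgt
Kif2c (chr4:117178723-117179022, minus strand): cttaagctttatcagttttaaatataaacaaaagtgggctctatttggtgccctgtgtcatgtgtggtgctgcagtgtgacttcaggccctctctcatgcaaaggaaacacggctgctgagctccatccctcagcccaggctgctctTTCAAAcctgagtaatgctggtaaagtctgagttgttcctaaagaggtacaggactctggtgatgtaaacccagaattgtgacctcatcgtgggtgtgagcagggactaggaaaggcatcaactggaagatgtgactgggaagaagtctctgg
Melk (chr4:44300667-44300966, plus strand): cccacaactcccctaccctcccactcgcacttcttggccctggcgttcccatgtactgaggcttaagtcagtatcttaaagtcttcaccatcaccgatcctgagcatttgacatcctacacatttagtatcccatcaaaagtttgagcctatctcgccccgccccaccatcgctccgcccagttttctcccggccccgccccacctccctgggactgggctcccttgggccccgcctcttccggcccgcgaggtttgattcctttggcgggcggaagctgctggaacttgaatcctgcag
Mcm6 (chr1:128359656-128359955, minus strand): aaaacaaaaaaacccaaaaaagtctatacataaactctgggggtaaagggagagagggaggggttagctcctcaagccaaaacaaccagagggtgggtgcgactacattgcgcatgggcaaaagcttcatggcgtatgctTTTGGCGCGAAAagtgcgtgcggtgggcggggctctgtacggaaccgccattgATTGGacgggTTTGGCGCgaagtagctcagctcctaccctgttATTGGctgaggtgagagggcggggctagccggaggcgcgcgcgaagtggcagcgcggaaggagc
Mcm5 (chr8:75109259-75109558, plus strand): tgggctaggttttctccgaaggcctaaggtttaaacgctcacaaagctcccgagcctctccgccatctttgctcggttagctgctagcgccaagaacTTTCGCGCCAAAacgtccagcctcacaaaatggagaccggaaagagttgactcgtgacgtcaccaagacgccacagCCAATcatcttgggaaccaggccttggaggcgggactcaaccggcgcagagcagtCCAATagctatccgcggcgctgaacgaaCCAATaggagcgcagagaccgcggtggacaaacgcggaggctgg
Agtr2 (chrX:21484374-21484673, plus strand): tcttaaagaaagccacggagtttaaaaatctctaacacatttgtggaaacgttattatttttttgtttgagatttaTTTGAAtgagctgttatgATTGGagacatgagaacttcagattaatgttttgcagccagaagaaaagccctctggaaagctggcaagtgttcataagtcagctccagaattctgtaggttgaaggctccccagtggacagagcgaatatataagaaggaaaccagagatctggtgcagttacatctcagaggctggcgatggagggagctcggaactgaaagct
Egln3 (chr12:54203825-54204124, minus strand): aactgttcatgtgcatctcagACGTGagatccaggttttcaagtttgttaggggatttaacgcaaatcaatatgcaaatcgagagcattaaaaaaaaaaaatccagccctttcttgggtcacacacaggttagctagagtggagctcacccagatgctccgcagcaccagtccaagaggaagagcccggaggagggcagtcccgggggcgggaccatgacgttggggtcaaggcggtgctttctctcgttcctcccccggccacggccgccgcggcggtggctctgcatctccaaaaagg

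Cdc20 held a CHR at bases 233 to 238 of its window, just upstream of the start, between CCAAT boxes at bases 198 and 243. Cdca8 had a CHR at bases 264 to 269 that overlapped the last of 4 CCAAT boxes. Kif2c held a CHR farther upstream and no CCAAT box, and in Melk none of the motifs matched. Mcm6 and Mcm5 each held a pair of overlapping E2F sites, and Mcm6 another at bases 204 to 211. Agtr2 held a CHR at bases 77 to 82 and a CCAAT box at bases 95 to 99, and Egln3 only the ACGTG core, which 27.8% of tested genes also had. Over the lists, 21 of 30 mitotic genes with a window (70.0%) had a CHR, against 14.6% of the 12117 tested genes with a window, and 70.0% had a CCAAT box against 42.3%. A CCAAT box was also found in 61.9% of replication, 57.1% of DNA repair and 68.4% of sympathoadrenal precursor genes. An E2F site matched in 11 of 21 replication genes (52.4%) and 5 of 14 DNA repair genes (35.7%), against 4.27% of tested genes. An E-box matched in 9 of 33 ribosome biogenesis genes (27.3%), against 10.9%. The window of Nop58, of this list, was also marked and is not printed. It held an E2F site and the ACGTG core but no E-box. These are matches of letters, given as a description, and binding was not measured.

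**Figure D2:**
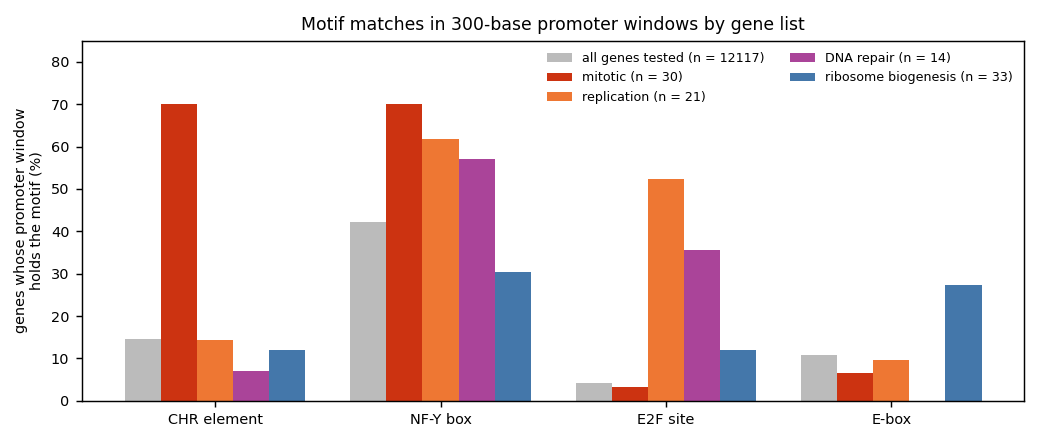
Share of genes (%) whose promoter window holds a CHR element, a CCAAT (NF-Y) box, an E2F site or an E-box, for all genes tested and for 4 gene lists (n, genes with a window). CHR stood highest among mitotic genes (70.0%) and E2F sites among replication genes (52.4%).

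Mitotic genes formed the most uniform group. Of 36 tested, 35 rose and none fell, beside 3.99% of all genes higher. Against wild-type ganglia 1 and 2, 34 rose, beside 3.17% of all genes. The median log2 fold change over all 4 wild-type ganglia was 2.33, beside -0.03 over all genes tested. Cdc20, which activates the ubiquitin ligase that starts anaphase, was 1127 and 814 in the homozygous ganglia and 140, 171, 85.2 and 68.7 in the wild-type ganglia. Both homozygous ganglia were far above all wild-type ganglia, a 7.75-fold difference (log2 2.95, SE 0.26, adjusted p = 9.9e-07). Cdca8, a subunit of the chromosomal passenger complex that corrects kinetochore attachment, was 1283 and 885 against 124, 180, 75.1 and 72.2 (log2 3.15, SE 0.26, adjusted p = 6.1e-07). Kif2c, a kinesin that takes microtubules apart at kinetochores, was 732 and 423 against 37.8, 72.8, 13.5 and 31.5 (log2 3.49, SE 0.30, adjusted p = 8.5e-07). In each of these genes homozygous ganglion 1 was above ganglion 2 and wild-type ganglion 2 was the highest of its group. Melk, a kinase of proliferating progenitors, was 530 and 333 against 43.1, 78.5, 65.6 and 52.6, and its fold change was nearly the same against both wild-type pairs (log2 2.55 and 2.54).

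The same separation was seen from kinetochore to cytokinesis. Cenpf, a kinetochore protein, read 984 and 721 against 48.7, 147, 31.9 and 55.8, an 11.1-fold difference. Top2a, the topoisomerase that untangles sister chromatids, read 1099 and 674 against 77.6, 143, 39.0 and 56.8 (log2 3.32). Ect2, which positions the cleavage furrow, read 516 and 349 against 55.0, 90.9, 96.1 and 90.4 (log2 2.18). The groups did not overlap for any of these 3 genes. Mki67, the proliferation antigen Ki-67, was 1796 and 1251 against 130, 472, 181 and 335 (log2 2.51, SE 0.33, adjusted p = 7e-05), with wild-type ganglion 2 again the highest of its group. Over the 20 arrays, the genes with profiles most like Mki67 were Cep55 (Pearson r = 0.981), Smc4 (0.978) and Rrm2 (0.971). Plk1, a master mitotic kinase, was dim at 73.3 and 71.0 against 16.7, 17.8, 2.33 and 11.5, and it did not pass against wild-type ganglia 1 and 2 (adjusted p = 0.072). The member that did not pass was Foxm1, a transcription factor of mitotic genes, at 58.2 and 36.7 against 31.8, 53.7, 41.4 and 12.4, values that overlapped and were low throughout. Without homozygous ganglion 1, 29 mitotic genes passed.

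A majority of the mitotic genes were higher still in tumors. In the tumors Cdc20 reached 2393 ± 186 (SD, n = 4) and Bub1, a spindle checkpoint kinase, 624 ± 140 (SD, n = 4), against 293 and 190 for Bub1 in the homozygous ganglia. Of the 36 mitotic genes, 21 were higher in tumors than in homozygous ganglia and none lower, beside 9.35% of all genes tested higher and 12.3% lower in that comparison, which uses the same homozygous ganglion arrays. Melk and Cenpf were not among the 21 (log2 0.49 and 0.44, adjusted p = 0.11 and 0.37).

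Replication genes rose with the mitotic genes. Of 27 tested, 25 rose and none fell, beside 3.99% of all genes higher, and the median log2 fold change was 1.80. Against wild-type ganglia 1 and 2, 20 rose, beside 3.17% of all genes. Mcm5 and Mcm6, subunits of the helicase that opens replication origins, were 1104 and 702 against 106, 176, 52.8 and 63.5 for Mcm5, and 531 and 372 against 73.3, 80.4, 37.7 and 35.2 for Mcm6. They differed by 8.43-fold (log2 3.08, SE 0.31, adjusted p = 4.7e-06) and 6.60-fold (log2 2.72, SE 0.25, adjusted p = 1.7e-06). Cdt1, which loads that helicase, was 855 and 728 against 106, 142, 28.8 and 49.8. For these 3 genes, wild-type ganglia 1 and 2 were above ganglia 3 and 4 and still well below both homozygous ganglia. Gins1, a partner of the helicase, showed no such split, with 313 and 226 against 56.0, 75.5, 65.3 and 67.9 (log2 1.78, SE 0.19, adjusted p = 6.4e-06). Orc1, a subunit of the origin recognition complex, did not pass (log2 0.49, adjusted p = 0.35). The flap endonuclease Fen1 did not pass either, at 2313 and 5898 against 5417, 6624, 560 and 672. Homozygous ganglion 2 and wild-type ganglia 1 and 2 were high together. Homozygous ganglion 1 lay between them and wild-type ganglia 3 and 4. Without homozygous ganglion 1, 15 replication genes passed. Homozygous ganglion 1 was above ganglion 2 for 35 of the 36 mitotic and 25 of the 27 replication genes, with a median difference of 0.51 over those 63 genes beside -0.02 over all genes.

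**Figure D3:**
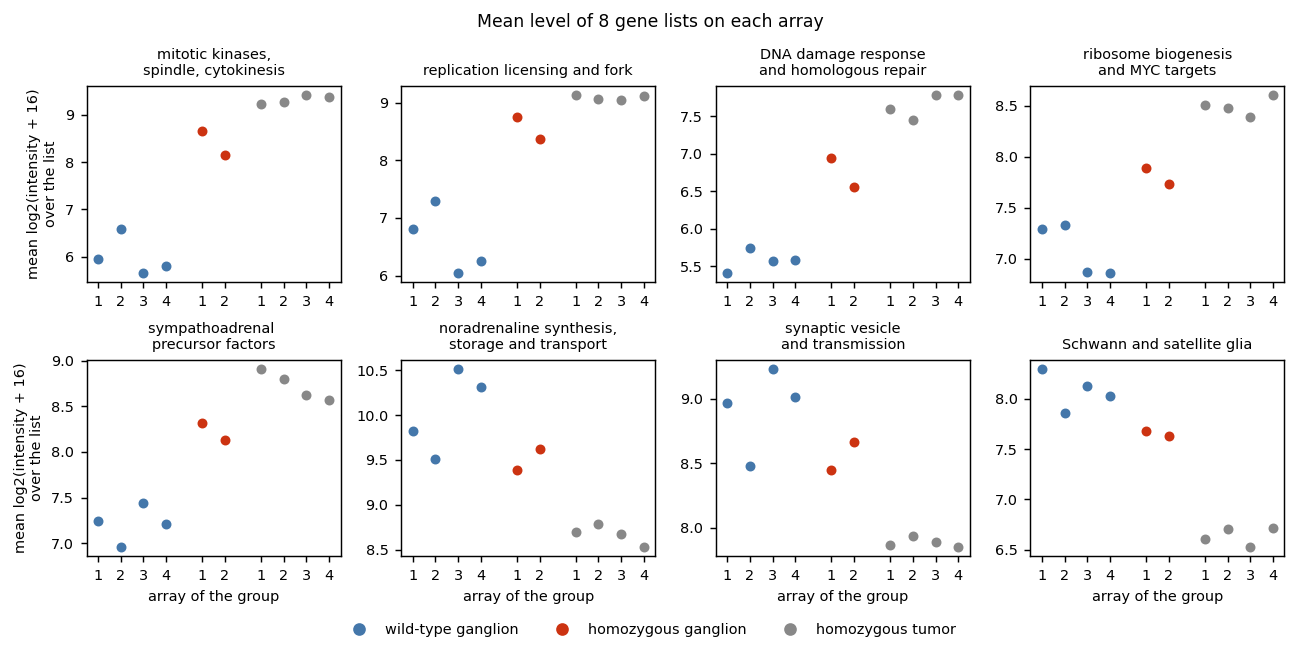
Mean log2(intensity + 16) over the tested or measured members of 8 gene lists on each array of wild-type ganglia, homozygous ganglia and homozygous tumors (1 point per array). For mitotic, replication, DNA repair, ribosome biogenesis and precursor lists the 2 homozygous ganglia sat above all wild-type ganglia and below the 4 tumors. For the glial list they sat below all wild-type ganglia and above the tumors, while the noradrenaline and synaptic lists overlapped between the ganglion groups.

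Supply and surveillance of DNA synthesis were raised in part. Rrm2, the regulated subunit of ribonucleotide reductase, read 2219 and 1447 against 90.1, 236, 98.3 and 109, a 12.9-fold difference. In tumors it was 2428 ± 140 (SD, n = 4), a log2 difference of 0.43 from the homozygous ganglia (adjusted p = 0.29). Of 18 nucleotide synthesis genes 7 rose and none fell (3 without either homozygous ganglion or with the replicate block, and 4 without wild-type ganglion 3 or 4), and 4 rose against wild-type ganglia 1 and 2, among them Rrm1 (log2 2.16) and Dut (log2 1.69), which clears dUTP. Umps, of pyrimidine synthesis, passed over all 4 wild-type ganglia (log2 1.18, adjusted p = 0.017) and not against ganglia 1 and 2 (log2 0.76, adjusted p = 0.12). Of 16 genes of the DNA damage response and homologous repair, 9 rose and none fell, and 8 rose against ganglia 1 and 2. Beside both of these lists, 3.99% of all genes were higher, and 3.17% against ganglia 1 and 2. Brca1, of homologous repair, was 200 and 153 against 27.1, 36.6, 43.6 and 45.5 (log2 1.83, SE 0.19, adjusted p = 7e-06). The checkpoint kinase Chek1 was 392 and 261 against 46.3, 105, 72.4 and 43.0 (log2 2.09). For both genes the homozygous ganglia were more than double the highest wild-type ganglion.

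Fewer genes of G1 control rose. The counts stand beside 3.99% of all genes higher, and 3.17% against wild-type ganglia 1 and 2. Of 22 cyclins, CDKs and CDK inhibitors, 6 rose and none fell, and also 6 rose against wild-type ganglia 1 and 2, but 1 rose without homozygous ganglion 1. Ccne1, the cyclin E that drives S phase entry, was 1118 and 779 against 386, 304, 232 and 370 (log2 1.51, SE 0.22, adjusted p = 0.00017). Cdk4, a G1 kinase, read 763 and 566 against 217, 275, 73.1 and 81.6 (log2 2.11, adjusted p = 0.001; adjusted p = 0.062 without homozygous ganglion 1). Rbl1 and E2f7, repressors of E2F targets, rose by log2 1.26 and 1.20, and neither passed without homozygous ganglion 1 (adjusted p = 0.081 and 0.14). The groups of Ccne1, Cdk4, Rbl1 and E2f7 did not overlap. Ccnd1, cyclin D1, was 779 and 785 against 414, 241, 351 and 366 and did not pass (log2 1.18, adjusted p = 0.083). The inhibitor Cdkn1a, a p53 target, was 222 and 342 against 479, 297, 252 and 353 (adjusted p = 0.72), and none of 17 p53 targets and Bcl2 family genes passed by limma (3 at an unadjusted p under 0.05).

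The mouse Mycn probe sets differed in direction. The brightest one read 254 and 229 in the homozygous ganglia and 323, 236, 304 and 413 in the wild-type ganglia (log2 -0.36, adjusted p = 0.57). A dimmer probe set read 29.6 and 32.6 against 10.5, 7.33, 2.93 and 14.9, above every wild-type ganglion (log2 0.94), and another read 12.6 and 12.9 against 21.5, 31.5, 28.5 and 34.2, below every one (log2 -0.64). These 2 were not tested. The labels do not say from which species the transgene came or which part of it these probes could read, so none is a measure of the transgene. Of 12 genes of the Myc, Max and Mxd network, Mxi1, a MAX-binding repressor, alone passed (log2 0.89, adjusted p = 0.038). Mxi1 did not pass against wild-type ganglia 1 and 2 (adjusted p = 0.18) or without homozygous ganglion 1 or 2 (adjusted p = 0.41 and 0.15).

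Few ribosome biogenesis genes, classical MYC targets, passed. Of 39 tested, 5 rose and none fell, beside 3.99% of all genes, and 3 rose against wild-type ganglia 1 and 2. By limma the 5 became 0 without homozygous ganglion 1, 1 without homozygous ganglion 2, 10 and 14 on leaving out wild-type ganglion 1 and 2 in turn, 3 on leaving out ganglion 3 or 4, and 1 with the replicate number as a block. The homozygous ganglia were above all 4 wild-type ganglia for 30 of the 39, beside 14% of all genes, and the median log2 fold change was 0.67. Fbl, the methyltransferase of ribosomal RNA, was 543 and 421 against 189, 218, 52.2 and 73.5 (log2 1.92, SE 0.43, adjusted p = 0.012). Ncl, nucleolin, was 1242 and 1068 against 637, 652, 135 and 67.5, with an adjusted p of 0.051. For both, wild-type ganglia 1 and 2 lay between the other pair and the homozygous ganglia, and neither passed against ganglia 1 and 2 (adjusted p = 0.076 and 0.27). Nop56, a core protein of the small nucleolar particles, was 644 and 443 against 209, 174, 256 and 187 and did pass there (log2 1.41, adjusted p = 0.029). Nop58, its partner, rose by log2 1.24 and did not pass against ganglia 1 and 2 (adjusted p = 0.072). Without homozygous ganglion 1, Fbl, Nop56 and Nop58 had adjusted p values of 0.24, 0.38 and 0.28.

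Precursor transcription factors rose as a subset. Of 26 sympathoadrenal factors tested, 9 rose and none fell, beside 3.99% of all genes higher. Against wild-type ganglia 1 and 2, 12 rose, beside 3.17% of all genes. Insm1, a zinc finger factor of neuroendocrine precursors, stood first by fold change among genes that passed with both groups apart. It was 721 and 524 in the homozygous ganglia and 4.28, 5.26, 9.73 and 0.889 in the wild-type ganglia, all under 10 (log2 4.92, SE 0.25, adjusted p = 1.3e-09). With wild-type values this low the pseudocount sets the size and rank of this fold change, which was log2 6.92 with a pseudocount of 1 and 3.30 with 64. In tumors it was 1127 ± 337 (SD, n = 4), higher again (log2 0.81, adjusted p = 0.026). Sox11, a factor of immature neurons, was 905 and 725 against 206, 136, 161 and 152 (log2 2.21, SE 0.19, adjusted p = 9.3e-07). Tox3 was 260 and 203 against 23.4, 22.6, 10.5 and 12.7 (log2 2.91), and Prox1, a homeobox factor of neural progenitors, was 239 and 115 against 18.8, 9.45, 22.3 and 23.1 (log2 2.43). Meis2, a homeobox cofactor, was 561 and 480 against 39.7, 53.5, 44.0 and 28.7 (log2 3.24, SE 0.41, adjusted p = 4.6e-05), with like values against both wild-type pairs. In each of these 5 genes every wild-type ganglion was below both homozygous ganglia.

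Dlk1, a membrane protein of fetal and chromaffin precursors, was 238 and 185 against 56.4, 65.0, 16.2 and 18.4 (log2 2.16), and 1566 ± 194 (SD, n = 4) in tumors, the member farthest from tumor level (log2 2.80, adjusted p = 2.6e-05). Sox4, another factor of immature neurons, was 2105 and 2032 against 1147, 990, 525 and 394, and 2372 ± 82.2 (SD, n = 4) in tumors. Lmo3, a cofactor linked to neuroblastoma, was 144 and 57.7 against 7.69, 4.17, 65.4 and 54.5, so it passed against wild-type ganglia 1 and 2 (log2 2.31, adjusted p = 0.00017) and not against all 4 (adjusted p = 0.083). Hand2 and Gata2, factors that noradrenergic neurons keep, did not pass. Hand2 was 1532 and 1707 against 1843, 1308, 2563 and 2338 (adjusted p = 0.5), and Gata2 was 471 and 547 against 591, 375, 540 and 365 (adjusted p = 0.87). The homozygous values of both lay within the wild-type range. Of 9 oncofetal RNA-binding and growth genes, Igf2bp3, which binds mRNA in fetal tissue, rose (log2 1.28, adjusted p = 0.044), but not against wild-type ganglia 1 and 2 (adjusted p = 0.053) or without homozygous ganglion 1 or 2 (adjusted p = 0.47 and 0.15) or wild-type ganglion 1 or 3 (adjusted p = 0.067 and 0.082).

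Chromatin genes of dividing precursors rose beside these factors. Of 20, 6 rose and Ezh1 fell, beside 3.99% of all genes higher and 1.02% lower. Against wild-type ganglia 1 and 2, 7 rose and none fell, beside 3.17% and 0.291% of all genes. Hells, a remodeller needed for DNA methylation, was 388 and 259 against 27.5, 34.1, 45.7 and 46.1 (log2 2.63, SE 0.22, adjusted p = 6.1e-07). Ezh2, the H3K27 methyltransferase of dividing cells, was 596 and 454 against 124, 127, 127 and 162 (log2 1.84, SE 0.18, adjusted p = 3.7e-06). Its paralog Ezh1, typical of resting cells, was 109 and 140 against 256, 200, 224 and 220 (log2 -0.78, SE 0.22, adjusted p = 0.045), a call not made against ganglia 1 and 2 (adjusted p = 0.095). The call of Ezh1 was also lost without either homozygous ganglion, without wild-type ganglion 1, 3 or 4, with median centring, with a pseudocount of 1 and with the replicate block. The maintenance methyltransferase Dnmt1 was 405 and 343 against 151, 175, 165 and 156, and its recruiter Uhrf1 was 209 and 164 against 27.2, 55.7, 10.9 and 26.3. Both passed (log2 1.13 and 2.21).

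Several of the highest genes belong to no cell cycle list. Agtr2, the type 2 angiotensin receptor, was 1811 and 1183 against 71.6, 121, 36.4 and 44.4, an 18.9-fold difference (log2 4.24, SE 0.29, adjusted p = 8.9e-08). Cbln2, a secreted synapse organizer, was 401 and 231 against 12.1, 10.7, 15.0 and 10.8 (log2 3.51, SE 0.28, adjusted p = 3.4e-07). Slc38a4, an amino acid transporter, was 708 and 437 against 37.8, 47.2, 31.0 and 36.3 (log2 3.41, SE 0.23, adjusted p = 7.3e-08). The wild-type values of Cbln2 and Slc38a4 were low and alike in both pairs. Sytl4, a Rab effector of granule release, was 2149 and 1481 against 147, 93.4, 119 and 181 (log2 3.61, SE 0.25, adjusted p = 9.9e-08), and Stk26, a kinase of the germinal center kinase family, 1625 and 1079 against 167, 119, 160 and 121 (log2 3.10). Nfe2l3, a bZIP transcription factor, was 652 and 413 against 30.0, 47.1, 16.8 and 17.9 (log2 3.66), and 554 ± 140 (SD, n = 4) in tumors, a log2 difference of 0.06 (SE 0.42). Dcx, a microtubule protein of migrating young neurons, was 1184 and 1017 against 282, 212, 141 and 116 (log2 2.52, SE 0.33, adjusted p = 6.3e-05).

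Agtr2, Sytl4, Stk26 and Dcx are on the X chromosome. All 4 passed against wild-type ganglia 1 and 2, which had Xist like the homozygous ganglia (log2 3.76, 3.75, 3.09 and 2.09). Of 495 X-linked genes tested, 25 were higher over all 4 wild-type ganglia, 5.05% beside 3.99% of all genes.

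Egln3, a prolyl hydroxylase that marks HIF for destruction, was 1058 and 879 in the homozygous ganglia, 178 and 88.2 in wild-type ganglia 1 and 2, and 13.2 and 22.0 in ganglia 3 and 4 (log2 3.83, SE 0.61, adjusted p = 0.0005). It passed against each pair (log2 2.78 and 4.88), and tumors ranged from 288 to 1129. Its dimmer probe set read 74.0 and 73.0 against 29.4, 9.53, 56.9 and 25.6 (log2 1.05), without the difference between the wild-type pairs. Of the 20 hypoxia response genes tested it was the one that passed, and the list's median log2 fold change was -0.26. Adm, another hypoxia target, was 141 and 173 against 298, 117, 1916 and 2357 (adjusted p = 0.21).

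**Figure D4:**
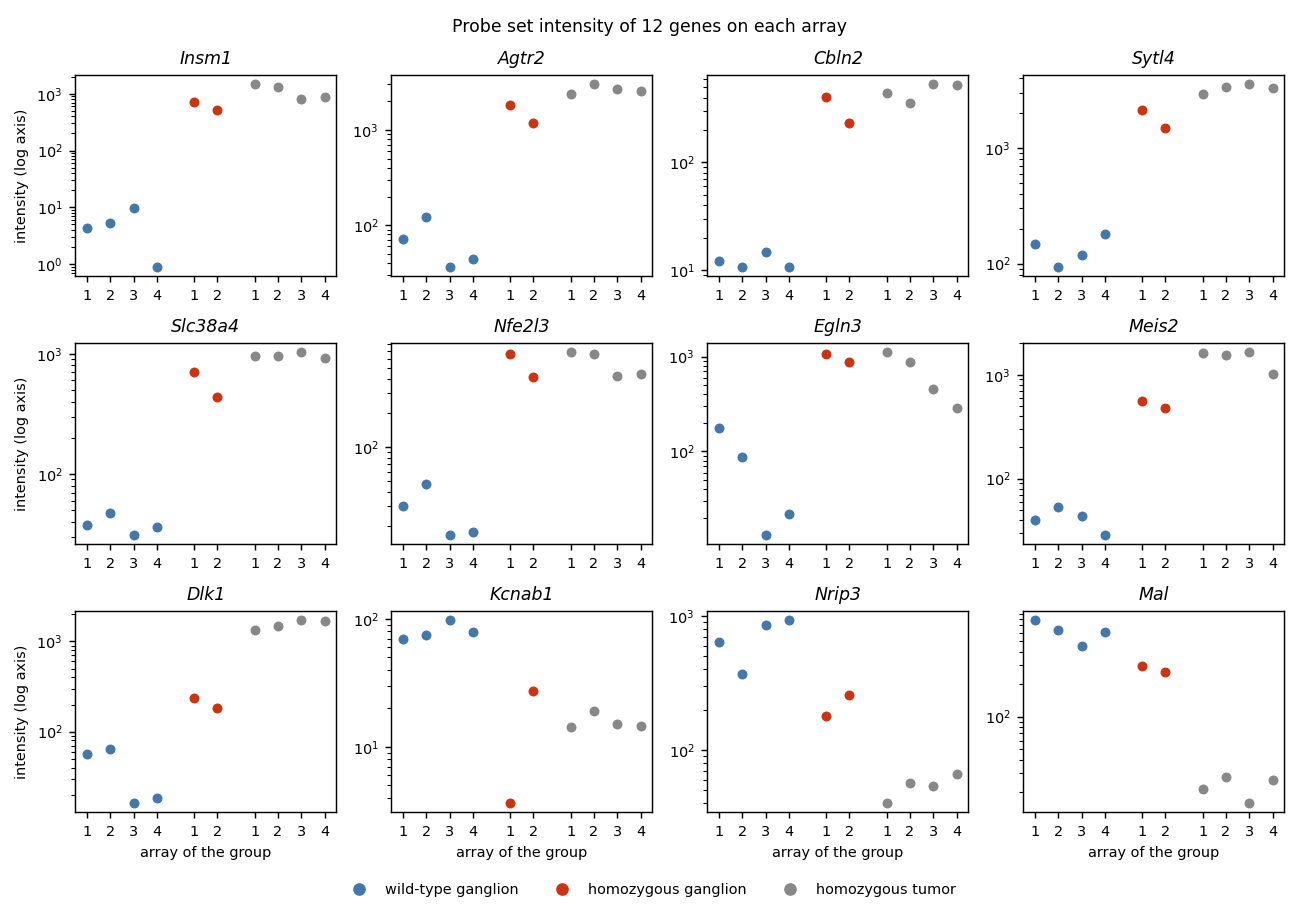
Probe set intensity (log axis) of 12 genes on each array of wild-type ganglia, homozygous ganglia and homozygous tumors (1 point per array). The upper 9 genes were higher in both homozygous ganglia than in all 4 wild-type ganglia, and Kcnab1, Nrip3 and Mal were lower in both.

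Growth factor and receptor genes of the lineage changed in few cases. Alk, a receptor tyrosine kinase mutated in some neuroblastomas, was 110 and 85.3 against 55.7, 24.5, 25.9 and 14.1 (log2 1.37, SE 0.28, adjusted p = 0.0066). Mdk, encoding the growth factor midkine, was 207 and 186 against 85.7, 97.7, 54.1 and 43.0 (log2 1.35, SE 0.29, adjusted p = 0.0079). Both homozygous ganglia were above all wild-type ganglia for both genes. Against wild-type ganglia 1 and 2 neither passed (log2 1.07, adjusted p = 0.051 for Alk, and 0.98, adjusted p = 0.061 for Mdk), nor did they without homozygous ganglion 1 (adjusted p = 0.2 and 0.17). Mdk also failed without homozygous ganglion 2 (adjusted p = 0.061). Of the other members of the midkine list Sdc2, a heparan sulfate coreceptor, fell (log2 -1.07, adjusted p = 0.048) and 16 of 19 did not pass. Sdc2 did not pass against ganglia 1 and 2 (adjusted p = 0.27), without homozygous ganglion 1 or 2 (adjusted p = 0.51 and 0.13), without wild-type ganglion 3 or 4 (adjusted p = 0.13 and 0.11), or with the replicate block (adjusted p = 0.18). Ptprz1, a midkine receptor, was 188 and 206 against 302, 228, 583 and 499 (adjusted p = 0.13), below all wild-type ganglia but close to ganglion 2. Ret, the GDNF receptor kinase, was 476 and 608 against 1322, 964, 958 and 827 and did not pass (log2 -0.88, adjusted p = 0.28).

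Notch2 was 122 and 130 in the homozygous ganglia and 169, 195, 924 and 911 in the wild-type ganglia, where the pairs differed more than the genotypes did (adjusted p = 0.13 over all 4, and 0.7 against ganglia 1 and 2). Hes1, a Notch target, was 38.8 and 51.8 against 68.0, 90.5, 25.9 and 20 (adjusted p = 0.99). None of 17 Notch pathway genes passed by limma (3 at an unadjusted p under 0.05), with a median log2 fold change of 0.03.

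Genes of the noradrenaline pathway did not pass. None of 14 genes of synthesis, storage and transport did so by limma over all 4 wild-type ganglia or against ganglia 1 and 2, while 5 were lower at an unadjusted p under 0.05 over all 4, and 6 were lower against ganglia 3 and 4, where 16% of all genes were. Th, tyrosine hydroxylase, was 1046 and 1426 against 2165, 1472, 3193 and 2775 (log2 -0.91, adjusted p = 0.38), the homozygous ganglia below all wild-type ganglia with ganglion 2 close to wild-type ganglion 2. Slc18a2, the vesicular monoamine transporter, was 869 and 1068 against 1368, 993, 5212 and 3430, so it differed from wild-type ganglia 3 and 4 (log2 -2.12, adjusted p = 0.00047) and not from ganglia 1 and 2 (log2 -0.27, adjusted p = 0.82). Npy, a cotransmitter, was 2537 and 2861 against 3908, 3644, 4214 and 3059 (adjusted p = 0.67), and 79.0 ± 39.1 (SD, n = 4) in tumors. Gal, encoding galanin, was the neuropeptide that passed, at 88.1 and 173 against 356, 228, 287 and 253 (log2 -1.06, adjusted p = 0.033). It did not pass against ganglia 1 and 2 (adjusted p = 0.068) or without homozygous ganglion 1 (adjusted p = 0.59), wild-type ganglion 1 (0.053) or wild-type ganglion 3 (0.065). Cartpt was 372 and 204 against 125, 75.3, 22.3 and 10.1 (adjusted p = 0.056). Vip was 607 and 1956 against 2478, 3015, 21.1 and 42.5, where wild-type ganglia 1 and 2 and both homozygous ganglia stood above ganglia 3 and 4.

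**Figure D5:**
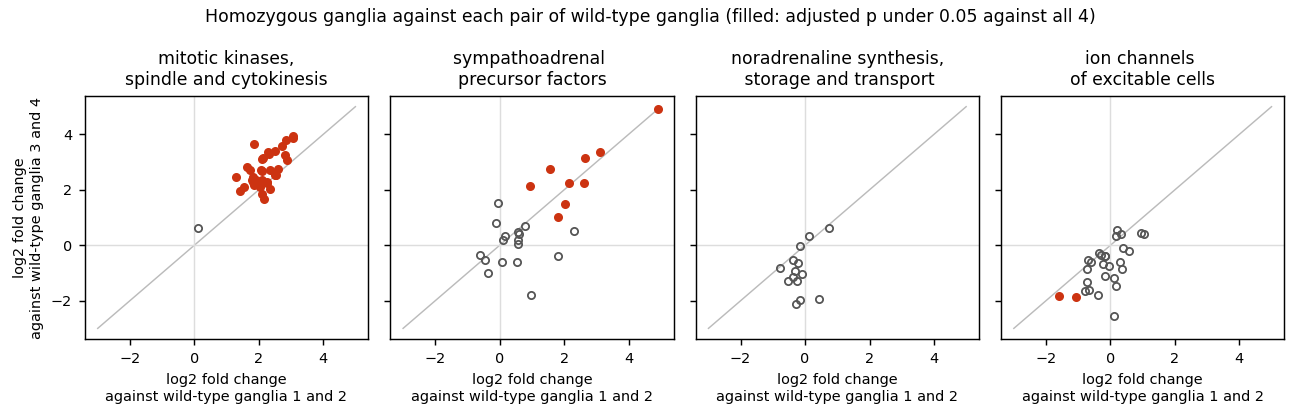
Log2 fold change of each tested member of 4 lists in homozygous ganglia against wild-type ganglia 1 and 2 (horizontal) and against ganglia 3 and 4 (vertical), both axes sharing the homozygous arrays (filled, passed against all 4; the grey line marks equal values). Mitotic genes other than Foxm1 were high on both axes, whereas noradrenaline genes lay near 0 on the horizontal axis and spread downward on the vertical.

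Among genes of neuronal structure and signalling, few passed over all 4 wild-type ganglia. Against ganglia 3 and 4 alone, 11 of 23 synaptic, 11 of 28 ion channel and 5 of 19 cytoskeletal genes were lower, beside 16% of all genes. Over all 4 wild-type ganglia Dcx alone of the 19 cytoskeletal genes passed, and it rose. Tubb3, Stmn2, Gap43 and Prph had adjusted p values there of 0.75, 0.48, 0.83 and 0.98. Of 23 synaptic genes Sytl4 rose and Grm7, a presynaptic glutamate receptor, fell (log2 -1.67, adjusted p = 0.044). Grm7 was 263 and 326 against 569, 472, 2072 and 1560, and it did not pass against wild-type ganglia 1 and 2 (adjusted p = 0.27) or without homozygous ganglion 1 or 2 or wild-type ganglion 3 or 4 (adjusted p = 0.43, 0.17, 0.11 and 0.11). Of 28 ion channel genes Kcnab1, a potassium channel subunit, and Kcna1, a potassium channel, fell, beside 1.02% of all genes. Kcnab1 was 3.63 and 27.5 against 70.3, 74.8, 98.7 and 78.9, with the wild-type ganglia alike and the homozygous ganglia apart (log2 -1.72, SE 0.26, adjusted p = 0.00028). Kcna1 was 46.8 and 45.5 against 181, 68.7, 227 and 192 (log2 -1.46, adjusted p = 0.032), and did not pass against ganglia 1 and 2 (adjusted p = 0.19) or without homozygous ganglion 1 or 2 or wild-type ganglion 3 or 4 (adjusted p = 0.3, 0.19, 0.086 and 0.08). Without wild-type ganglion 2, 8 synaptic and 11 ion channel genes were lower. Kcnma1, the large conductance potassium channel, rose against ganglia 1 and 2 (log2 1.04, adjusted p = 0.012) but not against all 4 (adjusted p = 0.085).

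Few glial genes passed. Of 20 tested, 2 fell and none rose, beside 1.02% of all genes lower and 3.99% higher. For 12 of them both homozygous ganglia lay below all wild-type ganglia, beside 13.5% of all genes, and the median log2 fold change was -0.56. In bulk tissue fewer cells of a type and less RNA per cell cannot be told apart. Mal, a myelin proteolipid, was 293 and 258 against 791, 628, 450 and 611 (log2 -1.10, adjusted p = 0.04), and it also passed against ganglia 1 and 2 (adjusted p = 0.031). Its dimmer probe set overlapped between the groups, at 116 and 121 against 209, 188, 135 and 96.5 (log2 -0.32). Kcnj10, the potassium channel of satellite glia, was 79.9 and 83.1 against 201, 118, 313 and 280 (log2 -1.24, adjusted p = 0.048), and did not pass against ganglia 1 and 2 (adjusted p = 0.28). Neither passed without homozygous ganglion 1 (adjusted p = 0.27 for Mal and 0.39 for Kcnj10), homozygous ganglion 2 (0.24 and 0.21) or wild-type ganglion 4 (0.074 and 0.12), nor did Mal without wild-type ganglion 1 (0.061) and Kcnj10 without ganglion 3 (0.13). Sox10, the glial lineage factor, was 108 and 80.2 against 304, 160, 200 and 220 (adjusted p = 0.1), all wild-type ganglia being higher. Fabp7, a satellite glia gene, was 4300 and 4104 against 4070, 4714, 5102 and 5031 (adjusted p = 0.83), so the groups overlapped for one of the brightest glial genes. In tumors Fabp7 was 339 ± 55.9 (SD, n = 4).

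The lowest genes over all 4 wild-type ganglia rested largely on ganglia 3 and 4. Plcl1, a phospholipase C relative without activity, was 32.9 and 40.0 against 109, 69.2, 478 and 549 (log2 -2.16, SE 0.54, adjusted p = 0.025). Sntb1, a syntrophin, was 28.0 and 19.7 against 74.7, 45.9, 398 and 269 (log2 -2.02, SE 0.53, adjusted p = 0.033). In both, wild-type ganglia 1 and 2 were above the homozygous ganglia and far below ganglia 3 and 4. Of the 12 lowest genes (Plcl1, Sntb1, Tmem179, Ralyl, Kcnab1, Grm7, St6galnac5, Ubash3b, Slc8a3, Nrip3, Rbm43 and Prune2), 2 passed against ganglia 1 and 2, namely Kcnab1 and Nrip3. Without homozygous ganglion 1, 1 of the 12 passed, without homozygous ganglion 2, 4, and without wild-type ganglion 3 or 4, 3 and 4. The 12 highest genes were Insm1, Agtr2, Egln3, Rrm2, Nfe2l3, Sytl4, Cbln2, Pclaf, Kif2c, Cenpf, Slc38a4 and Pbk. All 12 passed by limma against each wild-type pair and with any 1 wild-type ganglion left out, the largest adjusted p being 0.0021. With either homozygous ganglion left out their log2 fold changes were at least 3.075. Both lists of 12 were picked by their values on these same arrays, so these counts are no independent check.

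A smaller set fell against both pairs. Nrip3, a nuclear receptor interacting protein, was 178 and 255 against 636, 370, 864 and 940 (log2 -1.56, SE 0.32, adjusted p = 0.0053). Dmkn, dermokine, was 48.4 and 70.8 against 198, 112, 254 and 236 (log2 -1.47, adjusted p = 0.0021). Kcnip4, which modulates A-type potassium channels, was 126 and 163 against 288, 290, 509 and 482 (log2 -1.31, adjusted p = 0.002). Pdgfa, a growth factor, was 59.8 and 58.1 against 145, 131, 166 and 116, and Tspan17, a tetraspanin, 228 and 328 against 706, 463, 604 and 719. On the probe sets used, the homozygous ganglia were below every wild-type ganglion for these 5 genes. Dimmer probe sets of Pdgfa (log2 -0.16) and Tspan17 (log2 -0.19) and 1 of Nrip3 (log2 -0.12) overlapped between the groups. Those of Kcnip4 (log2 -0.51 and -1.05) and another of Nrip3 (log2 -0.72) did not. The dimmer probe sets were not tested. In tumors Kcnip4 was 7.33 ± 3.72 and Tspan17 43.7 ± 8.24 (SD, n = 4), lower still. Of the 12 lowest genes by this measure, 2 passed without homozygous ganglion 1, and none of these 5 was among them (adjusted p from 0.092 for Pdgfa to 0.23 for Tspan17).

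Other lists held few or no genes that passed. Of 22 immediate early genes Fosl2, an AP-1 subunit, fell (log2 -0.96, adjusted p = 0.018). Fosl2 did not pass against ganglia 1 and 2 (adjusted p = 0.13), without homozygous ganglion 1 or 2 (adjusted p = 0.24 and 0.13), without wild-type ganglion 4 (adjusted p = 0.051) or with the replicate block (adjusted p = 0.085), and its second probe set differed by 0.064. Fos was 85.9 and 107 against 244, 154, 731 and 765 (adjusted p = 0.092), with wild-type ganglia 3 and 4 the highest. None of 16 sterol synthesis and 19 antigen presentation genes passed by limma (1 and 3 at an unadjusted p under 0.05), with median log2 fold changes of -0.15 and -0.18. Macrophage genes were above all wild-type ganglia in 6 of 15 cases, beside 14% of all genes. None passed by limma over all 4 wild-type ganglia, and 7 were higher there at an unadjusted p under 0.05. Tyrobp, a microglial and macrophage adaptor, was 308 and 232 against 132, 148, 63.9 and 64.7 (adjusted p = 0.085).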

How the data were processed

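Probe set intensities of 20 Affymetrix mouse arrays were used on the linear scale as deposited by the authors, with a trimmed mean (2% at each end) of 100 on every array. The summarizing software and genome build are not given in the sources used here. Of 45037 probe sets that are no controls, 34945 had 1 symbol, 932 several and 9160 none; 34741 symbols matched RefSeq and 204 were kept. The probe set with the highest mean stood for a gene. Genes above the 40th percentile on at least 2 arrays were tested (15132 of 18193) with limma 3.58.1 in R 4.3.3 on log2(intensity + 16) without renormalization, over 7 group means (13 residual degrees of freedom), with Benjamini-Hochberg adjustment over all genes tested and a threshold of 0.05. Contrasts against pairs of wild-type ganglia used 8 groups (Python 3.11.15 for tables). The fit was tested on simulated data.

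Genes named were the 12 highest and 12 lowest with groups apart, the 12 highest and lowest against both wild-type pairs, the 4 smallest p of each of 24 lists, leading markers of 12 marker lists, Mdk, Mycn, Alk, Ptprz1, Notch2, Hes1 and the genes most like Mki67; further members are given with their values. Of 165 named genes, 34 have probe sets whose name says that they can match several transcripts. The members and lists were chosen with earlier results of these data known. Alternatives covered normalization, pseudocount, filter, probe set, arrays fitted, replicate block, spread, fold threshold and arrays left out.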

Additional observations from a re-analysis of the deposited data

Results flagged for a closer look

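In 18 of 254 groups of 4 arrays (127 named genes, in wild-type ganglia and homozygous tumors), 1 array stood apart from the other 3 by Dixon's 95% criterion, which chance meets in about 1 group in 20. Each is given with the range of the other 3 arrays. Wild-type ganglion 2 stood apart for Pisd at 535 against 397 to 410, Rbl1 at 99.0 against 62.2 to 64.3 and Erbb3 at 233 against 371 to 404. Wild-type ganglion 4 stood apart for Ezh2 at 162 against 124 to 127 and Adcyap1 at 3.36 against 23.0 to 25.5. Homozygous tumor 1 stood apart for Vip at 243 against 28.6 to 39.3, Mdk at 297 against 268 to 271, Ina at 896 against 662 to 679 and Pgk1 at 3056 against 2707 to 2724. Homozygous tumor 2 stood apart for Kcnip4 at 12.9 against 5.20 to 5.99. Homozygous tumor 3 stood apart for Stk26 at 2245 against 2054 to 2075, Slc18a2 at 1162 against 568 to 632 and Sox10 at 8.40 against 31.7 to 34.6. Homozygous tumor 4 stood apart for Meis2 at 1007 against 1540 to 1665, Iqsec1 at 80.5 against 61.4 to 63.3, Mcm6 at 1072 against 915 to 932, Ccne1 at 1592 against 1619 to 1622 and Phlda3 at 44.4 against 31.3 to 32.4.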

How the results depend on the processing

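The 758 genes that passed between homozygous and wild-type ganglia became 144 (all higher) with only the compared arrays in the fit, 434 with the replicate block, 96 with a 2-fold threshold in the test, 5283 against wild-type ganglia 3 and 4 alone, 2315 with the wild-type pairs averaged (an alternative chosen after seeing the data), and 189 to 2232 with 1 array left out (without homozygous ganglion 1 and without wild-type ganglion 2). The 523 against ganglia 1 and 2 became 296 with the second probe set, 163 with only the compared arrays, 60 with the 2-fold threshold and 184 to 515 with 1 array left out. The 5267 against ganglia 3 and 4 became 401 with the 2-fold threshold and 3126 to 5283 with 1 left out. The 3271 between tumors and homozygous ganglia became 6291 with only the compared arrays, 115 with the 2-fold threshold and 841 to 3803 with 1 left out (841 without homozygous ganglion 2 and 1468 without ganglion 1). Over the lists, 109 higher members became 54, 47 and 68 to 129 with only the compared arrays, the 2-fold threshold and 1 array left out. The 9 lower members became 2 with a pseudocount of 1, 16 with 64, 3 with the second probe set, 0 with only the compared arrays, 3 with the replicate block, 0 with the 2-fold threshold, 2 against ganglia 1 and 2 alone, 75 against ganglia 3 and 4 alone, 37 with the pairs averaged and 1 to 47 with 1 array left out. The 25 replication genes became 11, 8 and 15 to 25, and the 35 mitotic genes 23, 23 and 29 to 35, with only the compared arrays, the 2-fold threshold and 1 array left out. With the second probe set Fosl2 (0.064), Gins1 (-0.017), Mxi1 (-0.025) and Sytl4 (-0.033) changed sign on the log2 scale. The second probe set of Sytl4 read at most 7.57 on the 6 ganglion arrays, below the pseudocount of 16. A gene with only 1 probe set kept it in this setting, so the counts given for it include genes whose values could not change. The cause of the changes between settings was not tested, beyond the fewer arrays in some fits. Of 78 named genes that passed, 76 passed with quantile normalization, 75 with median centring, 57 with the replicate block, 35 with only the compared arrays, 32 with the 2-fold threshold, 47 with the second probe set, 54 against ganglia 1 and 2 alone, 41 without homozygous ganglion 1 and 53 without ganglion 2. Replicate numbers are shared by the labels only as numbers (r = -0.056 between the differences of homozygous ganglia 1 and 2 and wild-type ganglia 1 and 2). Only 2 homozygous ganglia were measured, which limits every count.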
